A study of Mus musculus with 8 samples.

Results

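The Th1 axis was taken as 10 genes: Ifng, its receptor chains Ifngr1 and Ifngr2, the IL-12 receptor chains Il12rb1 and Il12rb2, the IL-18 receptor chains Il18r1 and Il18rap, and the transcription factor genes Tbx21, Eomes and Runx3. They were found by symbol in a table of gene counts with 52997 symbols, where all 10 were present. Of the 11490 symbols with enough counts to be tested, 9 belonged to the axis, and Eomes was the member that fell short. CD4+ T cells had been sorted from the livers of C57BL/6 mice lacking Aire and carrying a GFP reporter of Foxp3, a strain written in the labels as Aire- Foxp3 GFP+ (C57/Bl6). The sorted cells were DAPI-, CD45+, TCRb+ and CD4+, had no Foxp3 reporter signal, and were split by surface PD-1 into 4 groups of 2 libraries each: PD-1+ cells of 10-day-old mice, PD-1- cells of 10-day-old mice, PD-1+ cells of 5-day-old mice and PD-1- cells of 5-day-old mice. The libraries are numbered 1 and 2 at 10 days and 2 and 3 at 5 days, as in the labels. Aire lets the thymus display tissue antigens to developing T cells. Every group lacked it and no group with Aire was analysed here, so the comparisons are between PD-1+ and PD-1- cells and between ages within Aire-deficient animals. No label ties a library to its animal, so p-values measure the spread between these libraries, which may be technical. At 5 days the 2 libraries of each group differed in counts of sex-linked genes, given below, and so came from animals of different sex.

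Th1 cells are the helper T cells that secrete interferon-gamma, the product of Ifng. IL-12 acts through a receptor of the Il12rb1 and Il12rb2 chains and the kinases Jak2 and Tyk2 to activate Stat4, and T-bet, the product of Tbx21, opens the Ifng locus and raises Il12rb2. IL-18 acts through Il18r1, which binds it, and Il18rap, which completes the signalling receptor, and works together with IL-12 on Ifng. Interferon-gamma itself binds Ifngr1 and needs Ifngr2 to signal through Jak1 and Jak2, and Th1 cells are known in mice to lower Ifngr2. PD-1 is an inhibitory receptor that T cells display after antigen contact.

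Library totals ran from 1473216 to 3019551 counts. Pdcd1, which encodes PD-1, had 1953 and 1420 counts in PD-1+ cells against 4 and 3 in PD-1- libraries at 10 days, and 615 and 564 counts in PD-1+ cells against 5 and 1 in PD-1- libraries at 5 days, so the libraries match their PD-1 labels. Foxp3 had 0 to 2 counts in PD-1+ libraries and 10 to 32 in PD-1- libraries. Aire had 0 to 2 counts in every library, too few to test the genotype. Genes of the sorted identity (Cd3 chains, T cell receptor constant regions and Cd4) summed to 4310 to 7640 counts per 1000000 (CPM) in PD-1+ cells and 4670 to 5780 CPM in PD-1- cells. At 10 days these sums stood apart, with 6290 to 7640 CPM in PD-1+ cells and 4670 to 5040 CPM in PD-1- cells. At 5 days they stood apart the other way, with 4310 to 4430 CPM in PD-1+ cells and 4840 to 5780 CPM in PD-1- cells. The 5-day libraries numbered 3 held 601 (PD-1+) and 672 (PD-1-) Y-linked counts and few Xist counts, 1 (PD-1+) and 5 (PD-1-), while in the other 6 libraries Y-linked counts were 0 and Xist counts 698 to 1842. Age is therefore partly mixed with sex, and the calls of the axis and of the interferon-gamma response that changed without those libraries are given with each result.

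Markers of other lymphocytes that make interferon-gamma were measured beside the axis. The 10 markers of NK and group 1 innate lymphoid cells summed to 40.2 to 146 CPM in PD-1+ cells and 20.1 to 111 CPM in PD-1- cells; 9 of the 10 were detected and Klra4 stood at 0. The 7 markers of NKT and innate-like T cells, all detected, summed to 412 to 660 CPM in PD-1+ cells and 466 to 516 CPM in PD-1- cells. Over both ages these ranges overlap between the populations, while single markers were called in both directions. Of 7 tested NK and group 1 markers, edgeR called 1 higher and 2 lower in PD-1+ cells over both ages. Of 7 tested NKT and innate-like markers it called 1 higher and 1 lower. Of all tested genes 21.9% were called higher and 19.6% lower. Within an age they stood apart once each: the NK and group 1 sum at 5 days, with 111 to 146 CPM in PD-1+ cells and 20.1 to 68.7 CPM in PD-1- cells, and the NKT and innate-like sum at 10 days, with 522 to 660 CPM in PD-1+ cells and 466 to 481 CPM in PD-1- cells. The 5 gamma-delta T cell markers, all detected, summed to 29.5 to 44.2 CPM in PD-1+ cells and 6.16 to 26 CPM in PD-1- cells, and the 7 hepatocyte markers, all detected, to 27.7 to 78.2 CPM in PD-1+ cells and 10.8 to 19.8 CPM in PD-1- cells. Both sums were higher in every PD-1+ library than in any PD-1- library. Over both ages 2 of 4 tested gamma-delta markers and 3 of 4 tested hepatocyte markers were called higher, and 0 lower. In the other direction, the 2 CD8 T cell markers, both detected, summed to 6.18 to 27.4 CPM in PD-1+ cells and 27.5 to 47.6 CPM in PD-1- cells. Of these 2, Cd8b1 was called lower over both ages (log2 fold change -1.92 ± 0.38, edgeR adjusted p = 0.00134). Cd8a was not called, with a value above 0 (0.62 ± 0.70, adjusted p = 0.508). The 6 endothelial and stromal markers, all detected, summed to 103 to 144 CPM in PD-1+ cells and 300 to 378 CPM in PD-1- cells. Only 1 of these 6 had enough counts to be tested, and it was called lower over both ages. Sums of macrophage, neutrophil and erythroid markers stood apart at 10 days and overlapped at 5 days, while those of B and dendritic cells overlapped at both ages. The part of these sums in the results was not tested. In sorted pools, fewer cells of a type and less RNA per cell cannot be told apart.

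The regions upstream of 4 members are shown because the results turn on them: Ifng and Tbx21, which differed most upward between PD-1+ and PD-1- cells, Ifngr2, which differed most downward, and Il12rb2, whose difference was called at 5 days and not at 10 days. Each is the 250 bases before the RefSeq start on GRCm38.p6, 5′ to 3′ on the gene's strand. They lie at chr10:118440796-118441045 (+ strand), chr11:97115332-97115581 (- strand), chr16:91546809-91547058 (+ strand) and chr6:67376189-67376438 (- strand). Capitals mark matches on either strand to 4 motifs that do not overlap here: TCACAC (a T-box half-site), TGTGGT (the core bound by Runx factors), TTCNNNGAA (the site bound by STAT dimers) and TATAAA (the TATA box).
Ifng: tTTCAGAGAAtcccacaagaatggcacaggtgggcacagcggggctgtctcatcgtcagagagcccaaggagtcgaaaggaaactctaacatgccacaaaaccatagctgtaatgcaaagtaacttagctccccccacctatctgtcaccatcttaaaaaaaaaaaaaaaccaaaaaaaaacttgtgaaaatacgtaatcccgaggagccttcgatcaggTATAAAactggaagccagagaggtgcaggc
Tbx21: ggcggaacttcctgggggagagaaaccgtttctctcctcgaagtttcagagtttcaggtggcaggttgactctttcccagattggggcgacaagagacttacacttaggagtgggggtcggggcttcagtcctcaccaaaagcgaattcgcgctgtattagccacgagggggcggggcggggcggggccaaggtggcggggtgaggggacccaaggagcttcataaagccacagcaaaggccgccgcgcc
Ifngr2: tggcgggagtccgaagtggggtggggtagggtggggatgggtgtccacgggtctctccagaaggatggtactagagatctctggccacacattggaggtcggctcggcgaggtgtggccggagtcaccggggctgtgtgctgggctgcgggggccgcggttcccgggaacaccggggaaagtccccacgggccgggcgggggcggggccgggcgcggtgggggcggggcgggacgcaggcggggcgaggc
Il12rb2: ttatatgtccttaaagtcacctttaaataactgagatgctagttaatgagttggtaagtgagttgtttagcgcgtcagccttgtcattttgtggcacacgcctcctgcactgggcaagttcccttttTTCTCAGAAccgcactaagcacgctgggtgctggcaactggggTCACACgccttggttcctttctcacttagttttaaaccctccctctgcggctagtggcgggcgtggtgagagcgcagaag
The Ifng region held a STAT-type match at position -249 from the start and a TATA box at -30. The Il12rb2 region held a STAT-type match at position -123 and a T-box half-site at -80. The Tbx21 and Ifngr2 regions, and those of Ifngr1 and Eomes, held none of the 4 motifs in the 300 bases searched, which reach 50 bases past the start. Among 32851 RefSeq windows of that length, 14.5% held the T-box half-site, 16.8% the Runx core, 8.3% the STAT-type site and 13.6% the TATA box, so a match is a description of the letters only. G and C made up 74.3% of the Ifngr2 window and 46% of the Ifng window, against a median of 52.7% over all windows. Windows were found for 9 of the 10 members.

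Comparing PD-1+ with PD-1- cells over both ages, Ifng, Tbx21, Runx3, Il12rb1, Il18r1 and Il18rap were higher in PD-1+ cells, Ifngr2 was lower, and Ifngr1 and Il12rb2 were not called. This was tested in edgeR with the quasi-likelihood test and Benjamini-Hochberg adjustment over all 11490 genes, calling genes at an adjusted p below 0.05. Of the 9 tested members 6 were higher and 1 lower, where 21.9% of all tested genes were higher and 19.6% lower. The median log2 fold change was 2.32 over the tested members and -0.01 over all tested genes. At 10 days 6 members were higher and 1 lower (16.4% and 12.9% of all genes), and at 5 days 7 were higher and 1 lower (17.6% and 16.7% of all genes). Without both libraries numbered 3 the counts were 6 higher over both ages, 7 at 10 days and 5 at 5 days, each with 1 lower. All 10 members had enough counts to be tested in that setting, and the added call at 10 days was Eomes (adjusted p = 0.0486). Scaling each library to its summed Cd3d, Cd3e, Cd3g and Trac counts shifted the median of all genes by -0.47 at 10 days and 0.32 at 5 days. Of all called genes, 24.4% were then higher at 10 days and 75.9% at 5 days, against 55.9% at 10 days and 51.3% at 5 days in the scaling used here. On that scale 5 members were higher and 2 lower at 10 days and 8 higher and 1 lower at 5 days, to be read relative to the shifts.

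**Figure D1:**
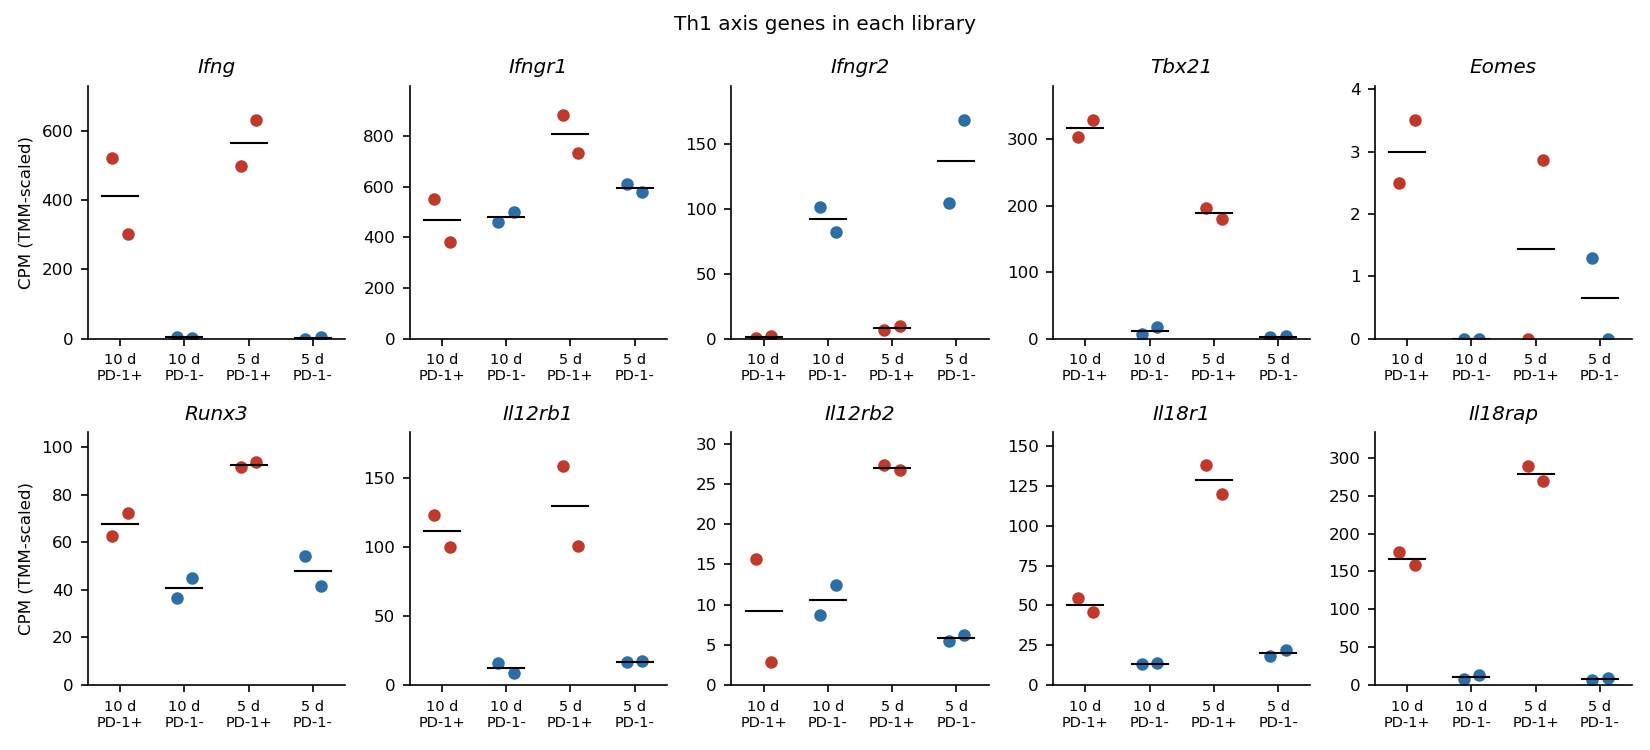
TMM-scaled CPM (vertical axes, each with its own scale from 0) of the 10 Th1 axis genes in each library; points are libraries, red for PD-1+ and blue for PD-1-, and bars are means of 2 libraries. Ifng, Tbx21, Runx3, Il12rb1, Il18r1 and Il18rap were higher in every PD-1+ library than in any PD-1- library, and Ifngr2 was lower in every PD-1+ library. The share of all tested genes that separate in this way is not given. Over both ages 21.9% of them were called higher and 19.6% lower.

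Ifng (chromosome 10, 118441046 to 118445892, GRCm38) had 1470 and 858 counts in PD-1+ cells against 16 and 3 in PD-1- libraries at 10 days. At 5 days it had 972 and 1325 counts in PD-1+ cells against 0 and 7 in PD-1- cells. Every PD-1+ library was above every PD-1- library by a wide margin. Scaled to CPM, Ifng averaged 413 ± 157 in PD-1+ cells and 3.57 ± 2.28 in PD-1- libraries at 10 days, and 566 ± 93.6 in PD-1+ cells and 1.99 ± 2.81 in PD-1- libraries at 5 days (SD, n = 2 each). Its log2 fold change over both ages was 7.43 ± 0.60 (SE; edgeR, Benjamini-Hochberg adjusted p = 8.85e-05). The order of the groups was PD-1+ at 5 days, PD-1+ at 10 days, PD-1- at 10 days and PD-1- at 5 days, and the 2 ages overlapped within each population. A transcript model on the same strand, Gm49751, overlaps Ifng and has no row of its own in the count table, so its reads cannot be told from those of Ifng.

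The gene beside Ifng did not follow it. Ifngas1, a noncoding RNA gene 56.1 kb away on the opposite strand and known in mice as a regulator of Ifng, had 4 counts over the 4 PD-1+ libraries and 17 over the 4 PD-1- libraries. Pooled, that was 0.413 CPM (95% Poisson interval 0.112 to 1.06) in PD-1+ cells and 1.79 CPM (1.05 to 2.87) in PD-1- cells, intervals that cover counting error only. All 8 annotated coding neighbours within 200 kb of Ifng stood at 0 counts in every library.

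The 2 chains of the interferon-gamma receptor diverged. Ifngr1 (chromosome 10, 19591949 to 19610229), the chain that binds the cytokine, had 553 and 380 CPM in PD-1+ cells against 462 and 501 CPM in PD-1- libraries at 10 days. At 5 days it had 882 and 734 CPM in PD-1+ cells against 609 and 578 CPM in PD-1- cells. The populations overlapped at 10 days and stood apart at 5 days. Here and below, standing apart within an age carries little weight with 2 libraries a group. At 5 days the uncalled genes Ifnar1 (edgeR adjusted p = 0.163) and Cryzl1 (adjusted p = 0.389) stood apart too. No share over all genes is given for this, nor for standing apart over both ages. The log2 fold change was -0.05 ± 0.17 at 10 days (edgeR adjusted p = 0.87) and 0.44 ± 0.17 at 5 days (adjusted p = 0.0502). The 5-day difference was thus just outside the threshold, and it passed it under 8 of 16 alternatives, with an adjusted p of 0.0421 in DESeq2. On the Cd3 and Trac scale the 10-day value was -0.55, called lower at an adjusted p that rounds to 0.05, beside the median shift of -0.47.

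Ifngr2 (chromosome 16, 91547072 to 91565623), the chain needed for signalling, had 2 and 5 counts in PD-1+ cells against 315 and 127 in PD-1- libraries at 10 days. Ifngr2 at 5 days had 13 and 20 counts in PD-1+ cells against 324 and 298 in PD-1- cells. Summed over the 4 PD-1+ libraries it had 40 counts, above the 23 of Eomes and below the other members, while at 10 days its 7 counts were below the 17 of Eomes. No PD-1+ library approached a PD-1- library. Its log2 fold change was -6.17 ± 0.42 at 10 days (edgeR adjusted p = 1.22e-08) and -4.05 ± 0.33 at 5 days (adjusted p = 1.32e-07), 27.8-fold lower over both ages. Per kilobase of exon, the scale on which genes can be compared, PD-1+ cells at 10 days had 0.328 ± 0.196 CPM per kb of Ifngr2 and 164 ± 42.9 of Ifngr1, and PD-1- cells had 24.5 ± 3.64 of Ifngr2 and 169 ± 9.7 of Ifngr1 (SD, n = 2 each).

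Genes around Ifngr2 differed less, and in both directions. The locus holds the other class II cytokine receptor genes Ifnar1, Ifnar2 and Il10rb, which encode chains of the type I interferon and IL-10 receptors. Of 12 coding neighbours within 200 kb, 10 were tested over both ages. Il10rb (log2 fold change 1.43 ± 0.22, edgeR adjusted p = 0.000108) and Atp5o (0.72 ± 0.14) were higher in PD-1+ cells, and Son (-0.51 ± 0.13) and Tmem50b (-0.57 ± 0.17) were lower. Son lost its call without both libraries numbered 3 (adjusted p = 0.0712), and Tmem50b without the 10-day PD-1- library 2 (adjusted p = 0.056) or the 5-day PD-1+ library 2 (adjusted p = 0.0639). Ifnar1 had a log2 fold change of -0.09 ± 0.15 and Ifnar2 of 0.15 ± 0.17, and neither was called.

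**Figure D2:**
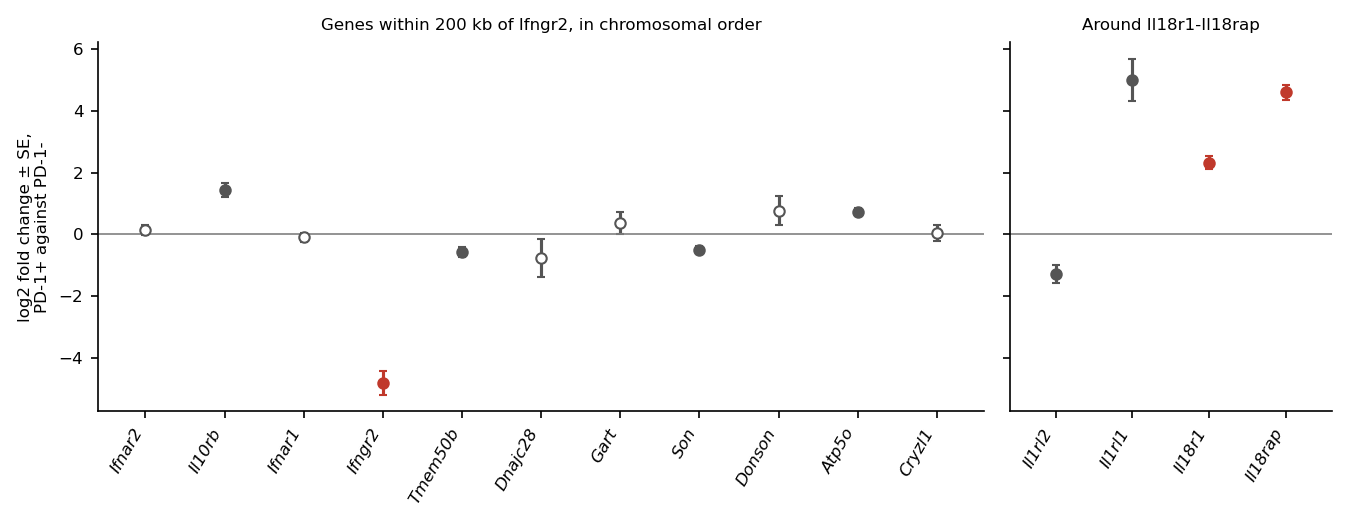
Log2 fold change (PD-1+ against PD-1- over both ages, edgeR, bars are SE) of tested genes in chromosomal order around Ifngr2 (left) and around Il18r1 and Il18rap (right); red marks Th1 axis genes, filled points are called at an adjusted p below 0.05. Ifngr2 stands at -4.80 among neighbours between -0.76 and 1.43, while Il1rl1, Il18r1 and Il18rap are all above 0.

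The chains of the IL-12 receptor differed from each other as well. Il12rb1 (chromosome 8, 70808449 to 70821424), which is shared with the IL-23 receptor, had 123 and 100 CPM in PD-1+ cells against 15.9 and 8.46 CPM in PD-1- libraries at 10 days. Il12rb1 at 5 days had 159 and 101 CPM in PD-1+ cells against 16.5 and 17.6 CPM in PD-1- cells. The populations were apart at both ages, with a log2 fold change of 3.11 ± 0.31 at 10 days (edgeR adjusted p = 1.11e-06) and 2.93 ± 0.30 at 5 days (adjusted p = 1.76e-06).

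Il12rb2 (chromosome 6, 67291318 to 67376188), the chain that recruits Stat4, had 44 and 8 counts in PD-1+ cells against 27 and 19 in PD-1- libraries at 10 days, so the populations overlapped. Il12rb2 at 5 days had 53 and 56 counts in PD-1+ cells against 17 and 11 in PD-1- cells, without overlap. The log2 fold change was -0.16 ± 0.59 at 10 days (edgeR adjusted p = 0.872) and 2.20 ± 0.59 at 5 days (adjusted p = 0.0104). The 5-day call was lost without the 5-day PD-1- library 2 (log2 fold change 2.11, adjusted p = 0.0724) and without both libraries numbered 3 (2.33, adjusted p = 0.0912). The 10-day PD-1+ library 2, with its 8 counts, decided the value over both ages, which was 1.02 ± 0.58 with it (adjusted p = 0.185) and 1.55 without it (adjusted p = 0.00649). It was also called without a filter on low counts (1.05, adjusted p = 0.0304). Exons of Il12rb2 overlap those of Serbp1 on the opposite strand, and the strand setting of the counting is not stated, so some reads could belong to either gene.

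Both chains of the IL-18 receptor were higher in PD-1+ cells, and unequally. Il18r1 (chromosome 1, 40465552 to 40500854) had 54.5 and 45.7 CPM in PD-1+ cells against 13.0 and 13.7 CPM in PD-1- libraries at 10 days. At 5 days it had 138 and 120 CPM in PD-1+ cells against 18.5 and 22.1 CPM in PD-1- cells. Il18rap (chromosome 1, 40515362 to 40551705) had 176 and 158 CPM in PD-1+ cells against 7.77 and 13.7 CPM in PD-1- libraries at 10 days, and 289 and 269 CPM in PD-1+ cells against 6.48 and 9.65 CPM in PD-1- libraries at 5 days. All PD-1+ libraries lay above all PD-1- libraries for both genes. The log2 fold change of Il18r1 was 1.91 ± 0.27 at 10 days (edgeR adjusted p = 3.74e-05) and 2.68 ± 0.25 at 5 days (adjusted p = 5.76e-07). That of Il18rap was 4.05 ± 0.25 at 10 days (adjusted p = 5.48e-09) and 5.16 ± 0.26 at 5 days (adjusted p = 1.16e-09).

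Il18r1 and Il18rap sit side by side on chromosome 1, next to Il1rl1, which encodes ST2, the receptor of IL-33, and ends 136 bases before Il18r1 begins. Il1rl1 had 62 to 118 counts in PD-1+ cells against 3 to 9 in PD-1- libraries at 10 days (log2 fold change 3.61 ± 0.49, edgeR adjusted p = 3.72e-05). At 5 days it had 214 counts over the PD-1+ libraries and 0 over the PD-1- libraries, at least 85.6-fold higher in PD-1+ cells against a floor of 3 counts over the group. Il1rl2, a further receptor gene of the family at this locus, was lower in PD-1+ cells over both ages (log2 fold change -1.28 ± 0.30, adjusted p = 0.00331). Of the 5 neighbours within 200 kb these 2 were tested.

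Of the transcription factors, Tbx21 (chromosome 11, 97098071 to 97115331) had 303 and 329 CPM in PD-1+ cells against 6.15 and 17.6 CPM in PD-1- libraries at 10 days. Tbx21 at 5 days had 197 and 180 CPM in PD-1+ cells against 2.27 and 3.41 CPM in PD-1- cells. All 4 groups stood apart, in the order PD-1+ at 10 days, PD-1+ at 5 days, PD-1- at 10 days and PD-1- at 5 days. The log2 fold change was 4.89 ± 0.32 at 10 days (edgeR adjusted p = 1.05e-07) and 6.10 ± 0.38 at 5 days (adjusted p = 9.25e-08).

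Runx3 (chromosome 4, 135120652 to 135177990), which cooperates with T-bet at Ifng, differed far less. It had 62.7 and 72.4 CPM in PD-1+ cells against 36.6 and 44.9 CPM in PD-1- libraries at 10 days, and 91.6 and 93.6 CPM in PD-1+ cells against 54.4 and 41.5 CPM in PD-1- libraries at 5 days. The populations did not overlap at either age. The log2 fold change was 0.74 ± 0.24 at 10 days (edgeR adjusted p = 0.0246) and 0.94 ± 0.23 at 5 days (adjusted p = 0.005). The 10-day call was lost in DESeq2 (adjusted p = 0.0593), without the 10-day PD-1- library 1 (log2 fold change 0.59, adjusted p = 0.188), without the 10-day PD-1+ library 2 (0.64, adjusted p = 0.12) and on the Cd3 and Trac scale (0.27, adjusted p = 0.505). The 5-day call was lost without both libraries numbered 3 (0.78, adjusted p = 0.118). An antisense gene, Gm16224, lies within the Runx3 gene body without exon overlap.

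Eomes (chromosome 9, 118478212 to 118486132), a T-box relative of Tbx21 that drives interferon-gamma in cytotoxic lymphocytes, was near the limit of detection. It had 7 and 10 counts in PD-1+ cells against 0 and 0 in PD-1- libraries at 10 days, and 0 and 6 in PD-1+ cells against 4 and 0 in PD-1- libraries at 5 days. At 10 days it was at least 4.64-fold higher in PD-1+ cells against a floor of 3 counts over the group. At 5 days the pooled level was 1.49 CPM (95% Poisson interval 0.545 to 3.23) in PD-1+ cells and 0.825 CPM (0.225 to 2.11) in PD-1- cells, a difference not detectable at this depth. With no filter on low counts, its edgeR adjusted p was 0.0409 at 10 days and 0.83 at 5 days. Per kilobase of exon, PD-1+ cells at 10 days had 0.723 ± 0.174 CPM per kb of Eomes and 127 ± 7.24 of Tbx21 (SD, n = 2). An antisense gene, Gm33460, overlaps its exons.

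Partner genes were also set against each other within each library, where scaling between libraries plays no part. The ratio used was log2 of counts plus 0.5, not divided by length. Ifngr2 to Ifngr1 stood at -9.28 and -7.62 in PD-1+ cells against -2.18 and -2.60 in PD-1- libraries at 10 days, and at -6.99 and -6.23 in PD-1+ cells against -2.53 and -1.77 in PD-1- libraries at 5 days. The mean over both ages was -7.53 ± 1.30 in PD-1+ cells and -2.27 ± 0.38 in PD-1- cells (SD, n = 4 each), a difference of -5.26. Il12rb2 to Il12rb1 averaged -3.12 ± 1.37 in PD-1+ cells and -0.83 ± 0.96 in PD-1- cells, a difference of -2.28. Il18rap to Il18r1 averaged 1.43 ± 0.37 in PD-1+ cells and -0.85 ± 0.65 in PD-1- cells, a difference of 2.27. Relative to its partner, the signalling chain was scarcer in PD-1+ cells for the interferon-gamma and IL-12 receptors and more abundant for the IL-18 receptor. Eomes to Tbx21 averaged -7.19 ± 1.64 in PD-1+ cells and -3.88 ± 2.27 in PD-1- cells, with Eomes at 0 counts in 4 of the 8 libraries, so that this ratio depends on the 0.5 added. An exact permutation test gave this ratio a two-sided p of 0.0286. That p entered the adjustment over the 4 ratios and is not read as a result, since without Eomes counts the ratio holds the Tbx21 level alone. In the other 3 ratios PD-1+ and PD-1- libraries did not overlap, and each two-sided exact permutation p, adjusted over the 4 ratios computed, was 0.0286, the smallest that 70 assignments of 4 libraries against 4 allow.

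**Figure D3:**
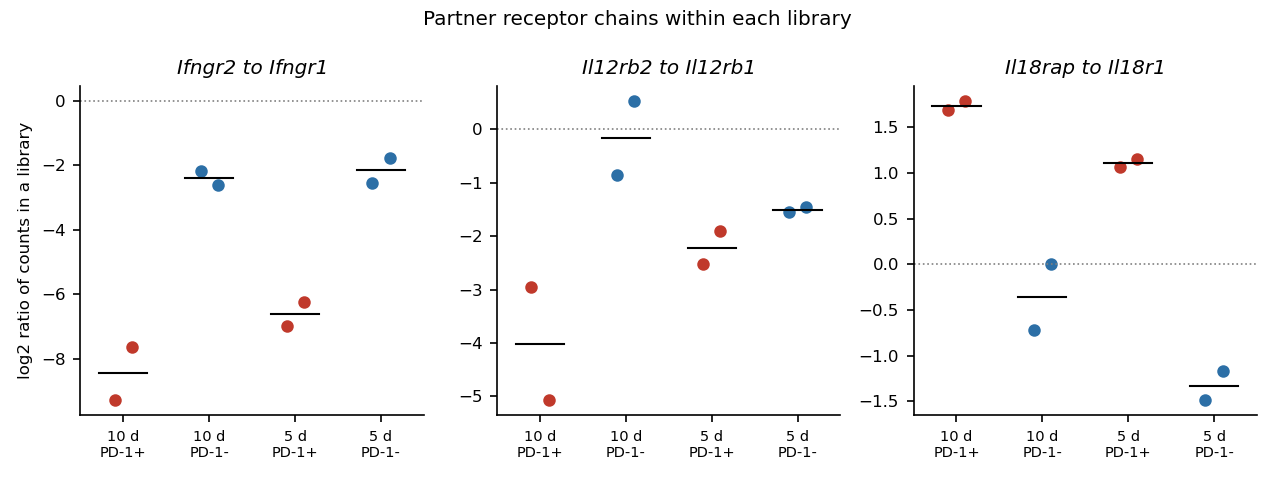
Log2 ratio of counts (plus 0.5) of partner receptor chains within each library (vertical axes, each with its own scale); points are libraries, red for PD-1+ and blue for PD-1-, and bars are means of 2 libraries. At each age the PD-1+ libraries lie below the PD-1- libraries for Ifngr2 to Ifngr1 and Il12rb2 to Il12rb1, and above them for Il18rap to Il18r1.

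Comparing 10 with 5 days in PD-1+ cells, 4 receptor chains were lower at 10 days. Ifngr2 (log2 fold change -2.67 ± 0.54, edgeR adjusted p = 0.00366), Il18r1 (-1.37 ± 0.23, adjusted p = 0.000868), Ifngr1 (-0.79 ± 0.17, adjusted p = 0.00522) and Il18rap (-0.74 ± 0.19, adjusted p = 0.018) made up the 4 of 9 tested members, where 6.98% of all genes were lower and 7.39% higher. None of the 9 was called higher by edgeR; 1 of them, Tbx21, was higher at an unadjusted p below 0.05 and was called by DESeq2. Tbx21 had a log2 fold change of 0.75 ± 0.24 (edgeR adjusted p = 0.056), Ifng of -0.46 ± 0.49 (adjusted p = 0.61), Il12rb1 of -0.21 ± 0.26 (adjusted p = 0.635) and Il12rb2 of -1.54 ± 0.55 (adjusted p = 0.0769). Il12rb2 was called lower without a filter on low counts (-1.48, adjusted p = 0.0241) and without the 10-day PD-1+ library 1 (-3.24, adjusted p = 0.00416), which leaves the library with 8 counts as the only one of its group. The calls of Ifngr1 and Il18rap rested on single libraries: Ifngr1 reached an adjusted p of 0.056 without the 10-day PD-1+ library 2 and 0.0727 without the 5-day PD-1+ library 2. Il18rap lost its call when any 1 of the 4 PD-1+ libraries was left out, with an adjusted p of 0.0574 without the 10-day library 1, 0.1 without the 10-day library 2, 0.144 without the 5-day library 2 and 0.0651 without the 5-day library 3. On the Cd3 and Trac scale, which shifted the median of all genes by -0.61 in this comparison, 7 members were lower at 10 days, the 4 above with Runx3 (-1.10), Il12rb1 (-0.89) and Il12rb2 (-2.27), while Tbx21 stood at 0.10 and was not called.

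In PD-1- cells the axis showed no called difference between 10 and 5 days, where 0.148% of all genes were higher and 0.122% lower. Of the 9 tested members 0 were called by edgeR, with 1 higher (Tbx21) and 2 lower (Ifngr2 and Il18r1) at an unadjusted p below 0.05, and DESeq2 called 1, Tbx21, higher. Over all genes 1219 of 11490 reached that unadjusted p in either direction. Tbx21 had 6.15 and 17.6 CPM at 10 days against 2.27 and 3.41 CPM at 5 days, a log2 fold change of 1.95 ± 0.50 (edgeR adjusted p = 0.156). Without the 10-day PD-1- library 1 it was called, at 2.67 (adjusted p = 0.0145).

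Whether the PD-1 difference itself changed with age was tested as an interaction, 10-day minus 5-day. Of the 9 tested members 0 were called, where 1.2% of all genes were called higher and 0.923% lower. At an unadjusted p below 0.05 there were 3, all lower, where 1728 of all 11490 genes reached it in either direction, and DESeq2 called 0 members. These 3 were Ifngr2 (-2.11 ± 0.61, edgeR adjusted p = 0.0851), Il12rb2 (-2.36 ± 0.83, adjusted p = 0.174) and Il18rap (-1.11 ± 0.38, adjusted p = 0.15). Leaving out 1 library gave a call to Ifngr2 (-2.52, adjusted p = 0.0322, without the 5-day PD-1- library 3), which was also called without a filter on low counts (-2.06, adjusted p = 0.0223), to Il12rb2 (-4.06, adjusted p = 0.0141, without the 10-day PD-1+ library 1) or to Tbx21 (-1.93, adjusted p = 0.0431, without the 10-day PD-1- library 1). On the Cd3 and Trac scale, with a median shift of -0.80 over all genes, 6 members were called lower: these 3 with Tbx21 (-2.04), Il18r1 (-1.63) and Ifngr1 (-1.36). Whether the PD-1 difference of Il12rb2 changed with age therefore rests on the scale and on single libraries.

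**Figure D4:**
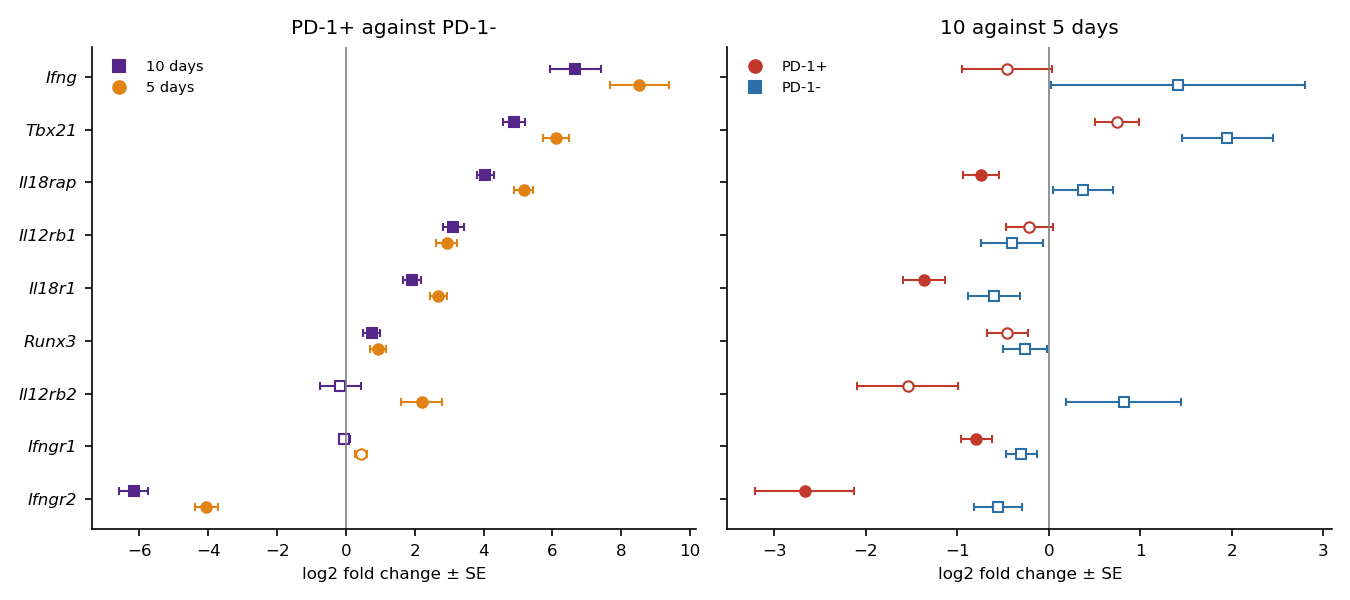
Log2 fold change ± SE (edgeR) of the 9 tested Th1 axis genes, PD-1+ against PD-1- at each age (left) and 10 against 5 days in each population (right); filled symbols are called at an adjusted p below 0.05. The PD-1 differences run from 8.53 for Ifng at 5 days to -6.17 for Ifngr2 at 10 days, and the 4 filled age differences in PD-1+ cells are all below 0.

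The wider pathway was described by gene lists. Here and in the next 3 paragraphs the list counts over both ages stand beside 21.9% of all tested genes called higher and 19.6% lower. An unadjusted p below 0.05 over both ages was reached by 5689 of all 11490 genes in either direction. Of 8 genes of JAK-STAT signalling below the IL-12 and interferon-gamma receptors, 3 were higher in PD-1+ cells over both ages and 1 was lower, with a median log2 fold change of 0.40. The 3 were the kinases and factor of the IL-12 branch: Stat4 (1.27 ± 0.17, edgeR adjusted p = 2.77e-05), Tyk2 (0.94 ± 0.16, adjusted p = 0.000346) and Jak2 (0.87 ± 0.16, adjusted p = 0.00046), Jak2 serving both receptors. Jak1, the kinase attached to Ifngr1, was lower (-0.83 ± 0.12, adjusted p = 7.33e-05). Of 13 tested genes of IL-18 receptor signalling 5 were higher and 0 lower by edgeR, with a median of -0.00. At an unadjusted p below 0.05 there were 6 higher and 2 lower, and DESeq2 called 5 higher and 0 lower. The 5 were the adaptor Myd88 (0.67 ± 0.16, adjusted p = 0.00363), the kinases Irak2 (1.10 ± 0.26) and Irak4 (0.62 ± 0.17), the NF-kB subunit Nfkb1 (2.00 ± 0.14) and Gadd45b (2.62 ± 0.15), which in mouse Th1 cells links IL-12 and IL-18 signals to p38 and Ifng. Sigirr, an inhibitory receptor of the family, was called lower at 5 days.

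Of 10 tested regulators that act with T-bet in Th1 cells, 6 were higher in PD-1+ cells and 2 lower, with a median log2 fold change of 2.21. Bhlhe40, a factor that sustains Ifng and restrains Il10 in mouse Th1 cells, averaged 817 ± 54.1 CPM in PD-1+ cells and 7.62 ± 6.27 CPM in PD-1- cells (SD, n = 4 each). The other 5 were Irf8 (3.40 ± 0.20), Id2 (2.69 ± 0.18), Batf (1.74 ± 0.16), Zeb2 (2.98 ± 0.63) and Prdm1 (2.99 ± 0.66), while Runx1 (-0.79 ± 0.18) and Ets1 (-0.72 ± 0.13) were lower. Prdm1 lost its call without the 10-day PD-1- library 1 (adjusted p = 0.0537). Of 8 tested factors that oppose or precede the Th1 programme, 4 were lower and 2 higher, with a median of -0.56. Bach2 (-2.60 ± 0.21), Tcf7 (-2.65 ± 0.20), Foxo1 (-1.59 ± 0.16) and Id3 (-1.76 ± 0.20), which are known for keeping T cells naive or memory-like, were lower. Zbtb32, a repressor of cytokine genes in mice, averaged 141 ± 31.6 CPM in PD-1+ cells and 1.15 ± 0.874 CPM in PD-1- cells, and Gata3, the factor of Th2 cells, was also higher (0.73 ± 0.15).

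Of 20 Th1 effector genes 16 were higher in PD-1+ cells over both ages and 0 lower by edgeR, with a median log2 fold change of 4.90. At an unadjusted p below 0.05 there were 17 higher and 0 lower, and DESeq2 called 17 higher and 0 lower. The 4 not called by edgeR were Ccl5 (5.02 ± 1.74, adjusted p = 0.0713), Gzma (0.94 ± 0.91, adjusted p = 0.463), Tnf (0.29 ± 0.19, adjusted p = 0.247) and Lta (-0.08 ± 0.32, adjusted p = 0.864). Within PD-1+ cells Lta was called lower at 10 than at 5 days. Cxcr3, the chemokine receptor that T-bet activates, averaged 404 ± 93 CPM in PD-1+ cells and 15.4 ± 7.23 CPM in PD-1- cells (log2 fold change 4.77 ± 0.18, edgeR adjusted p = 3.3e-10). Fasl, a death ligand, averaged 115 ± 52.6 CPM in PD-1+ cells and 6.67 ± 4.0 CPM in PD-1- cells. Il10, an anti-inflammatory cytokine that chronically stimulated Th1 cells also make, had 2651 counts in PD-1+ cells and 10 in PD-1- cells. Il2 had 172 counts in PD-1+ cells and 2 in PD-1- cells, and within PD-1+ cells it was lower at 10 than at 5 days (-2.72 ± 0.53, adjusted p = 0.00317).

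Among 14 tested receptors related to those of the axis, 5 were higher in PD-1+ cells over both ages and 4 lower, with a median log2 fold change of 0.16. Il2rb, the beta chain of the IL-2 and IL-15 receptors, averaged 1080 ± 115 CPM in PD-1+ cells and 62.4 ± 20.4 CPM in PD-1- cells, and Il2ra 63.3 ± 47.7 CPM in PD-1+ cells and 3.63 ± 3.60 CPM in PD-1- cells. Il7r, the receptor of the survival cytokine IL-7, averaged 19.1 ± 6.19 CPM in PD-1+ cells and 361 ± 97.6 CPM in PD-1- cells, and Il6st, the shared signal chain of the IL-6 family and IL-27, 57.8 ± 17.1 CPM in PD-1+ cells and 189 ± 37.9 CPM in PD-1- cells. Of 8 listed ligand genes, 3 had enough counts to be tested. Ebi3, a subunit of IL-27 and IL-35, had 145 counts in PD-1+ cells and 9 in PD-1- cells, and Il18 had 34 counts in PD-1+ cells and 5 in PD-1- cells. Both were called higher, and Il18bp, whose product binds free IL-18, had a log2 fold change of -0.18 ± 0.37 (adjusted p = 0.723). The Il18 call (2.44 ± 0.87, adjusted p = 0.0349) was lost in DESeq2 (adjusted p = 0.0626), without a filter on low counts (adjusted p = 0.0549) and when any of 6 libraries was left out (adjusted p up to 0.15).

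For genes known to respond to interferon-gamma, the PD-1 differences at 10 and at 5 days were set side by side. Of 22 listed genes 20 were tested. Not tested, for want of counts, were Cxcl9, with 0 to 3 counts a library, and Ciita, with 0 to 5. At 10 days 10 of them were higher in PD-1+ cells and 0 lower by edgeR, with a median log2 fold change of 1.14 and 12 higher and 0 lower both at an unadjusted p below 0.05 and in DESeq2. At 5 days 4 were higher and 3 lower, with a median of -0.28. Over all tested genes 16.4% were called higher and 12.9% lower at 10 days, and 17.6% higher and 16.7% lower at 5 days. An unadjusted p below 0.05 at 10 days was reached by 4516 of all 11490 genes in either direction. The chemokine gene Cxcl10, the guanylate-binding protein gene Gbp5, Irf8 and the immunoproteasome gene Psmb8 were higher at both ages. At 10 days B2m and Tap1, which serve antigen display by MHC class I, Nlrc5, Psmb9, Gbp3 and Iigp1 were higher as well. The transcription factor gene Irf1 (-0.54 ± 0.17, edgeR adjusted p = 0.0189) and the GTPase genes Irgm1 (-1.42 ± 0.33, adjusted p = 0.0127) and Irgm2 (-1.78 ± 0.28, adjusted p = 0.000137) were lower at 5 days. Irf8 and Irf1 also stood in the list of regulators above.

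**Figure D5:**
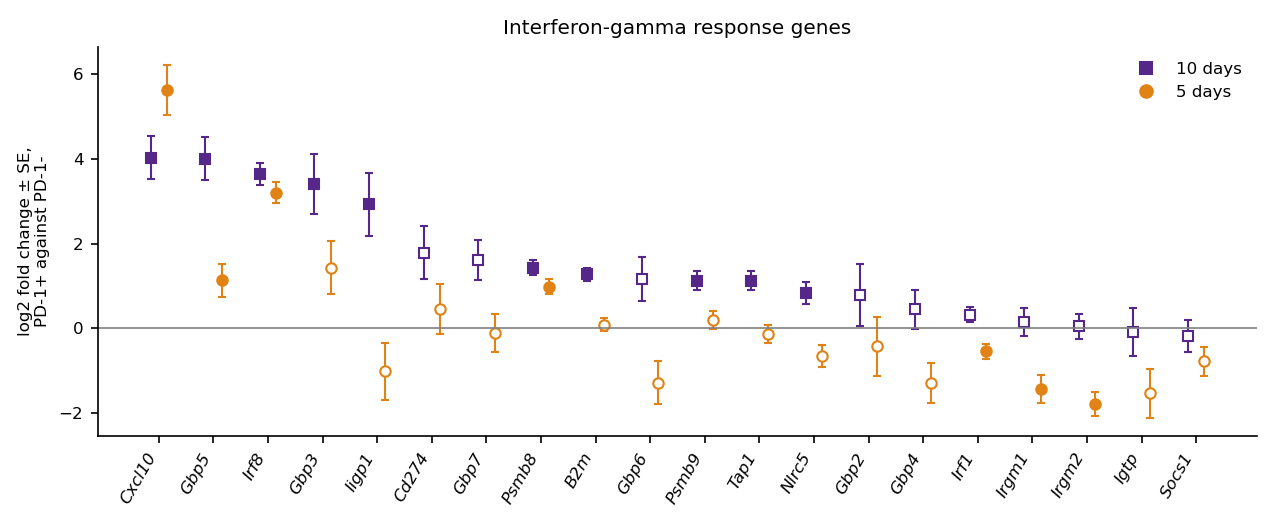
Log2 fold change ± SE (edgeR, PD-1+ against PD-1-, vertical axis) of the 20 tested interferon-gamma response genes, ordered by the 10-day value; squares are 10 days, circles 5 days, and filled symbols are called at an adjusted p below 0.05. The 10-day value lies above the 5-day value for 19 of the 20 genes.

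Irgm2 had 38.8 and 29.2 CPM in PD-1+ cells against 38.9 and 25.4 CPM in PD-1- libraries at 10 days, and 36.5 and 34.4 CPM in PD-1+ cells against 148 and 93.7 CPM in PD-1- libraries at 5 days. For Irgm2 the 2 PD-1- libraries of 5 days stood above all others. B2m had 6350 and 4760 CPM in PD-1+ cells against 2050 and 2530 CPM in PD-1- libraries at 10 days, and 4360 and 3590 CPM in PD-1+ cells against 3750 and 3720 CPM in PD-1- libraries at 5 days, so its populations overlapped at the younger age.

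The interaction test, 10-day minus 5-day, called B2m (1.19 ± 0.21, edgeR adjusted p = 0.00928), Irgm2 (1.83 ± 0.40, adjusted p = 0.0273) and Gbp5 (2.87 ± 0.66, adjusted p = 0.0373) higher and 0 lower. At an unadjusted p below 0.05 there were 12 higher and 0 lower, and DESeq2 called 9 higher and 0 lower. Over all tested genes the edgeR interaction called 1.2% higher and 0.923% lower, and 1728 of 11490 had an unadjusted p below 0.05 in either direction. Within PD-1+ cells B2m (0.48 ± 0.15, adjusted p = 0.0442) and Nlrc5 (0.86 ± 0.26, adjusted p = 0.0472) were higher at 10 than at 5 days, and Irf8 (-0.84 ± 0.21, adjusted p = 0.0142) was lower. Within PD-1- cells 0 were higher and 3 lower at 10 days, Gbp5 (-2.97 ± 0.53, adjusted p = 0.0265), Irgm2 (-1.89 ± 0.28, adjusted p = 0.00979) and Irf1 (-0.96 ± 0.17, adjusted p = 0.0214). At an unadjusted p below 0.05 there were 0 higher and 17 lower in that comparison, and DESeq2 called 0 higher and 9 lower.

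Single libraries weighed on these counts. The 5-day PD-1- library 2 was the highest of the 4 PD-1- libraries for 19 of the 20 genes, and both 5-day PD-1- libraries exceeded both 10-day PD-1- libraries for 18. Without it the 5-day comparison had 6 genes higher and 2 lower with a median log2 fold change of 0.27, and the interaction called 2. Without the 5-day PD-1- library 3 the 5-day comparison had 3 higher and 8 lower with a median of -0.68, and the interaction called 13. The interaction called 0 without the 5-day PD-1+ library 3 and 1 without the 5-day PD-1+ library 2, the 10-day PD-1+ library 1 or the 10-day PD-1- library 2. Genes higher at 10 days ranged from 7 to 13 over the 8 omissions of 1 library. Genes lower at 10 than at 5 days in PD-1- cells numbered 15 without the 5-day PD-1- library 3, 2 without the 5-day PD-1- library 2, 1 without the 10-day PD-1- library 1, 0 without the 10-day PD-1- library 2 and 6 without either 10-day PD-1+ library.

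Within PD-1+ cells the B2m call for age was lost without any of 3 libraries (adjusted p up to 0.368), the Nlrc5 call without any of 6 (up to 0.261) and the Irf8 call without any of 3 (up to 0.213). In PD-1- cells Gbp5 and Irf1 each lost the call without any of 3 libraries and Irgm2 without 1. Leaving out both libraries numbered 3 ended the age calls of B2m (0.33, adjusted p = 0.348) and Nlrc5 (0.63, adjusted p = 0.0743) in PD-1+ cells, where 0 of the 20 genes were then higher and 2 lower. In PD-1- libraries 0 were higher and 16 lower at 10 days in that setting. The same omission left 14 higher and 0 lower at 10 days and 3 higher and 6 lower at 5 days. The interaction then called 8, no longer with B2m (1.03, adjusted p = 0.0747) or Gbp5 (3.04, adjusted p = 0.0506).

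On the Cd3 and Trac scale the interaction called 1 gene, with 16 of the 20 values above 0. The same scale left 6 of the 20 higher at 10 days and 0 lower by edgeR, and 4 higher and 2 lower at 5 days. On that scale B2m stood at -0.19 for 10 against 5 days in PD-1+ cells, the reverse of its sign above, beside the median shift of -0.61.

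The genes whose profile over the 8 libraries lay nearest to that of a member were found by the root mean square difference of centred log2 CPM among 6998 genes whose mean log2 CPM reached 4. The distances describe these 8 libraries, which all share the split by PD-1. Nearest to Ifng were Bhlhe40 (distance 0.44), Plek (1.08), Pdcd1 (1.10), the gene behind the sort, and S100a6 (1.13). Bhlhe40 averaged 841 ± 0.225 CPM in PD-1+ cells and 8.27 ± 5.25 CPM in PD-1- libraries at 10 days, and 793 ± 79.9 CPM in PD-1+ cells and 6.98 ± 9.41 CPM in PD-1- libraries at 5 days (SD, n = 2 each), and like Ifng its 2 ages overlapped within PD-1- cells. Nearest to Tbx21 were Cxcr3 (0.50), Nkg7 (0.52), Myo1f (0.63) and Maf (0.67). Cxcr3 averaged 481 ± 42.8 CPM in PD-1+ cells and 21.6 ± 1.08 CPM in PD-1- libraries at 10 days, and 326 ± 11.7 CPM in PD-1+ cells and 9.28 ± 2.13 CPM in PD-1- libraries at 5 days. As for Tbx21, all 4 groups stood in the order PD-1+ at 10 days, PD-1+ at 5 days, PD-1- at 10 days and PD-1- at 5 days.

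Nearest to Ifngr2 were Pdlim4 (0.42), Trat1 (0.43), Satb1 (0.50) and Igfbp4 (0.57), each high in PD-1- cells. Satb1, a chromatin organiser of T cells, averaged 29.0 ± 8.73 CPM in PD-1+ cells and 1680 ± 39.0 CPM in PD-1- libraries at 10 days, and 235 ± 23.2 CPM in PD-1+ cells and 1490 ± 63.8 CPM in PD-1- libraries at 5 days. Trat1, an adaptor of the T cell receptor complex, averaged 3.88 ± 1.96 CPM in PD-1+ cells and 146 ± 12.1 CPM in PD-1- libraries at 10 days, and 11.3 ± 2.20 CPM in PD-1+ cells and 145 ± 6.33 CPM in PD-1- libraries at 5 days. In each of these 4 genes, as in Ifngr2, the lowest group was PD-1+ at 10 days.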

How the data were processed

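The authors deposited 1 table of raw read counts per gene symbol for 8 libraries. Per the labels' protocols, RNA was primed with oligo(dT), made into Nextera XT libraries and sequenced on a NextSeq500. The submitters' processing notes name STAR 2.5.4, featureCounts and mm10. Annotation, strand setting and the fate of multi-mapping reads: not given in the sources used here. All columns were used.

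Counts were tested in edgeR 4.0.16 (R 4.3.3, limma 3.58.1) with TMM scaling, filterByExpr on the 4 groups and the robust quasi-likelihood F test. Age and PD-1 as additive terms gave the comparison over both ages, a model of the 4 groups the other 5, each adjusted by the Benjamini-Hochberg method over 11490 genes. The test was tested on simulated counts for the comparison over both ages. It called 55 of 96 genes changed 2-fold and 79 of 93 changed 4-fold, with 14 calls among unchanged genes. The simulation changed only 200 genes, while in the data 2512 were called higher and 2249 lower. The other 5 comparisons were not simulated. CPM are counts per 1000000 after TMM scaling, and depth was 1473216 to 3019551 counts a library. Replicate libraries differed by more than sampling noise (chi-square per degree of freedom 3.86 to 8.91).

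Alternatives were upper-quartile and RLE scaling, DESeq2 1.42.0, other count filters, a replicate block, scaling to Cd3 and Trac counts, and leaving out libraries. The Cd3 and Trac scale for age comparisons and response genes, and the block for the interaction, were added after seeing the data. Gene coordinates and exon lengths came from GENCODE on GRCm38, upstream sequence from RefSeq on GRCm38.p6.

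The members and lists were chosen with earlier results of these data known. All members are named. One gene was left out of the lists and is not reported here. Lists are given by counts, with up to 4 genes of smallest p over both ages, and other list genes were named after their values were seen. Also named are coding genes within 200 kb of 3 loci and the 4 nearest profiles of Ifng, Tbx21 and Ifngr2.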

Additional observations from a re-analysis of the deposited data

Results flagged for a closer look

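Eomes stood at 1.3 CPM, from 4 counts, in the 5-day PD-1- library 2, while the other 3 PD-1- libraries were at 0. It was the only 1 of 28 groups of 4 libraries whose extreme value stood this far from the rest, and chance alone marks about 1 in 20 such groups. That rate does not cover a group whose other 3 libraries are at 0, where any count above 0 is marked.

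The difference between the PD-1 effects at 10 and 5 days was tested for 102 genes of the axis, its lists and its loci, and 6 passed an adjusted p of 0.05 in edgeR. B2m (1.19), Gbp5 (2.87) and Irgm2 (1.83) are described with the interferon-gamma response. B2m lost its call under 3 of 16 alternatives, Gbp5 under 7 and Irgm2 under 6. Il10ra, a chain of the IL-10 receptor, differed by 2.13 ± 0.47 on the log2 scale (adjusted p = 0.0499). It averaged 159 ± 71.8 CPM in PD-1+ cells and 45.8 ± 0.321 CPM in PD-1- libraries at 10 days, and 67.9 ± 27.8 CPM in PD-1+ cells and 85.5 ± 3.70 CPM in PD-1- libraries at 5 days (SD, n = 2 each). Its call was lost under 9 of 15 alternatives, with adjusted p up to 0.208. Il7r differed by -1.34 ± 0.31 (adjusted p = 0.0339), with 14.3 ± 2.62 CPM in PD-1+ cells and 434 ± 49.6 CPM in PD-1- libraries at 10 days, and 23.9 ± 3.98 CPM in PD-1+ cells and 288 ± 67.7 CPM in PD-1- libraries at 5 days. Its call was lost under 7 of 15 alternatives, with adjusted p up to 0.141. Il1rl1 had a fitted difference of -6.38, which depends on the model's prior because the 5-day PD-1- libraries held 0 counts. Measured levels were 31.9 ± 14.3 CPM in PD-1+ cells and 2.43 ± 0.681 CPM in PD-1- libraries at 10 days, and 53.3 ± 11.2 CPM in PD-1+ libraries of 5-day-old mice, and the call was lost under 5 of 15 alternatives. Without both libraries numbered 3, Irgm2 was the 1 of these 6 that kept its call, and the adjusted p of the other 5 ran from 0.0506 to 0.102.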

How the results depend on the processing

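The PD-1 differences of Ifng, Tbx21, Ifngr2, Il12rb1, Il18r1 and Il18rap kept their direction and their call under every alternative run, at each age and over both. Members called lower at 10 days numbered 2 on the Cd3 and Trac scale, against 1. Without 1 library, members called higher ranged from 5 to 6 at 10 days, 6 to 8 at 5 days and 6 to 7 over both ages. For the difference of the PD-1 effect between ages, against 0 called lower, there was 1 (Ifngr2) without a count filter and with the replicate block, 6 on the Cd3 and Trac scale and 0 to 1 without 1 library. For 10 against 5 days in PD-1+ cells, against 0 called higher, there was 1 (Tbx21) with upper-quartile scaling, DESeq2 or no filter and 0 to 1 without 1 library. Against 4 called lower there were 5 without a filter (Il12rb2 added), 7 on the Cd3 and Trac scale and 2 to 4 without 1 library. In PD-1- cells 1 member (Tbx21) was called higher in DESeq2 and without a filter, and 0 to 1 without 1 library. B2m reversed to -0.19 for 10 against 5 days in PD-1+ cells on the Cd3 and Trac scale. The cause of these changes was not tested.

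Ratio differences were -5.26, -2.28, 2.27 and -3.31 (Eomes to Tbx21, whose test is not read as a result). Permutation within each age gave the first 3 an exact p of 0.0556, the smallest that 36 assignments allow. The replicate block gave the same ratio differences with an exact p of 0.125, the smallest of 16 sign changes, and a call was not possible there. Without 1 library they ranged from -5.69 to -4.68 (Ifngr2 to Ifngr1), -2.69 to -1.63 (Il12rb2 to Il12rb1), 2.06 to 2.56 (Il18rap to Il18r1) and -3.95 to -2.26 (Eomes to Tbx21). Same-numbered libraries deviated together with r of 0.0938 at 5 days and 0.1141 at 10 days, and no label states a shared animal, so the numbers were not taken as pairs. With 2 libraries a group, the deviations from a group mean mirror each other, so each age gives only 1 value of r. That r was above 0 at both ages is a weak hint from the data and not the design. At 5 days same-numbered libraries also matched in sex: both numbered 3 held Y-linked counts (601 and 672) and both numbered 2 held 0. At 10 days all libraries held 0 Y-linked counts, so sex cannot tell there. With the block 8 members were higher at 5 days, Ifngr1 (0.44, adjusted p = 0.0267) being the added one, against 7. The block also gave Ifngr2 a call for the difference between ages (-2.10, adjusted p = 0.0493), left Il18 uncalled over both ages (2.46, adjusted p = 0.0617) and called 15 interferon-gamma response genes in the interaction, against 3.

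Over all genes, the interaction called 138 higher and 106 lower, against 305 and 164 without a filter, 263 and 220 with the block, 169 lower in DESeq2 and 52 lower without both libraries numbered 3, 49 to 153 higher and 43 to 132 lower without 1 library, and 42 and 1901 on the Cd3 and Trac scale. For 10 against 5 days in PD-1+ cells 849 were higher, against 526 without both libraries numbered 3 and 271 to 934 without 1 library; 802 were lower, against 279 to 921. In PD-1- cells 17 were higher and 14 lower, against 28 and 44 in DESeq2, 64 and 116 without a filter 29 and 60 without both libraries numbered 3, and 3 to 30 and 1 to 60 without 1 library. At 10 days 1881 were higher, against 1210 to 2016 without 1 library. At 5 days 2021 were higher and 1915 lower, against 1348 to 2075 and 980 to 1888 without 1 library and 1156 lower without both libraries numbered 3. The share of higher calls was 45.1% in DESeq2 for the interaction, against 56.6%, and 38.9% for age in PD-1- cells, against 54.8%. On the Cd3 and Trac scale it was 2.16% for the interaction, and for age 6.11% in PD-1+ cells, against 51.4%, and 81.2% in PD-1- cells. With 2 libraries a group, and 10 or fewer counts of Eomes in any library, small differences were not detectable.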
